A study of Mus musculus with 7 samples.

Results

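The mucin genes described here are Muc1, Muc4, Muc16, Muc13, Muc20, Muc5ac, Muc6 and Muc5b. They are 8 of the 54446 genes in a count table of mouse pancreatic spheroids and were picked by symbol as a gene family, not by a measured value. Their symbols were matched through the Ensembl identifiers of the table.

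Mucins are large glycoproteins whose long stretches rich in serine, threonine and proline carry dense O-linked sugars. Membrane mucins such as Muc1 and Muc4 stand on the apical surface of epithelial cells and have a short tail inside the cell, while secreted gel-forming mucins such as Muc5ac and Muc6 are packed in granules and build mucus. In the human pancreas MUC1 marks normal ducts, and MUC4, MUC5AC and MUC6 appear in precursor lesions of ductal cancer.

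The spheroids are epithelial cultures grown from pancreas of wild-type C57BL/6J mice. There were 4 libraries from mice earlier given caerulein, an analogue of the hormone cholecystokinin that causes acute pancreatitis, and 3 from untreated mice. All cultures were grown in the same type of medium, with a serum supplement, EGF, hydrocortisone and cholera toxin. The labels used here give neither the age of the mice, nor the dose and timing of caerulein, nor whether libraries came from separate animals, so each p-value reflects only how these libraries vary, and part of that variation may be technical. By its title the study concerns what epithelium keeps of an earlier inflammation, and the comparison asks how spheroids from mice given caerulein differ from those of untreated mice.

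The libraries held 34783738 to 46744497 counts, so 3 counts correspond to 0.0642 to 0.0862 CPM (counts scaled to library size). All 10 duct markers were detected, with Krt8, Krt18 and other members summing to 14331 to 21407 CPM in post-caerulein and 13623 to 15493 CPM in untreated libraries. Untreated 03 and post-caerulein 04 stood apart from the rest of their groups. The root mean square difference of log2 CPM between these libraries was 0.43, against 0.83 and 0.84 between untreated 03 and the other untreated libraries. Post-caerulein 02 and 03 (0.19) and untreated 01 and 02 (0.24) were close pairs, but not one library deposited again, since chi-square per gene was 10.2 in the first pair and 12.4 in the other, above sampling noise. A model term that sets untreated 03 and post-caerulein 04, called here the smaller block, against the other 5 libraries, the larger block, gave back the log2 fold changes of all 12983 genes in the authors' deposited table to within 3.16e-08. No label says what the block stands for. Each mucin is therefore given in every library, in a fit with the group as the only term, in a fit with the block, and within each block.

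The promoters of Muc1 and Muc4 are shown because these membrane mucins had their highest levels in the same libraries, untreated 01 and 02. The sequences are the 250 bases before the RefSeq start on GRCm38.p6, chr3:89228806-89229055 and chr16:32735636-32735885, both on the plus strand. RefSeq promoter entries matched 6 of the 8 members, not Muc5ac and Muc5b. Capitals mark matches on either strand to the TATA box TATAAA, the CCAAT box, the GC box GGGCGG, the AP-1 site TGANTCA, the STAT site TTCNNNGAA, the forkhead site TGTTTAC, the GATA site AGATAA and the E-box CANNTG. No match in either window overlaps another.
Muc1: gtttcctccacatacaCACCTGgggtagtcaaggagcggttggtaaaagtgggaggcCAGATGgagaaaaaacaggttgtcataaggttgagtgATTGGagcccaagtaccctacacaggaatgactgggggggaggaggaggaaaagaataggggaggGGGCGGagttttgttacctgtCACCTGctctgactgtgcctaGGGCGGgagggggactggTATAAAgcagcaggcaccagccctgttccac
Muc4: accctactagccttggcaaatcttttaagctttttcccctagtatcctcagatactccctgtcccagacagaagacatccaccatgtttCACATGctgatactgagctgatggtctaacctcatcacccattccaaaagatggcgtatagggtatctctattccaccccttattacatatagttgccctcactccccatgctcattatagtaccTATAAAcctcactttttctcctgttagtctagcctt
Both windows hold a TATA box, at -31 to -26 in Muc1 and at -36 to -31 in Muc4, a motif found in 12.4% of all 32851 promoter windows of this length. The Muc1 window also holds GC boxes at -91 and -49, found in 32.7% of windows, and a CCAAT box on the minus strand at -156, found in 33.8%. E-boxes occur in both and in 66.2% of all windows. The AP-1, STAT, forkhead and GATA letters, held by 6.75%, 7.02%, 3.17% and 9.99% of windows, are in neither.

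The repeats of the mucin domains are shown because reads from identical copies may not be placed by an aligner, which bears on how these genes are counted. In the longest GENCODE coding transcript of Muc5ac, 23.2% of 50-base windows occur more than once, and the most repeated one has 11 copies. The shares are 10.1% in Muc4, 1.28% in Muc1, 21.9% in Muc5b, 14.2% in Muc13, 12.7% in Muc6, 2.06% in Muc16 and 0 in Muc20. The windows with most copies in Muc4 (6 copies, the first 372 bases apart) and Muc5ac (11 copies, the first 96 bases apart) lie in coding exons, the first copies at chr16:32752104-32752153 and chr7:141808654-141808703 on the plus strand of GRCm38.
Muc4 repeat: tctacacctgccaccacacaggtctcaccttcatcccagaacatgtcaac
Muc5ac repeat: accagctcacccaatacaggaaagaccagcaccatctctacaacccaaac
The treatment of reads in such repeats is not stated in the labels or headers. The same sequence applies to every library, so comparisons of a gene between libraries share it, whereas levels between genes do not.

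Among the membrane mucins, Muc4 differed most between the groups. Muc4 encodes a very large membrane mucin that, in rat, binds the receptor ErbB2. The gene lies on chromosome 16, 32735886 to 32782391 (GRCm38, plus strand). Muc4 was at 2.97, 3.72, 3.48 and 0.357 CPM in post-caerulein 01 to 04, against 56.4, 57.6 and 2.05 CPM in untreated 01 to 03. Every post-caerulein library was far below untreated 01 and 02, but untreated 03 was below 3 of the 4 post-caerulein libraries, so the groups overlap. Within each block the order was the same: 3.39 ± 0.380 CPM (SD, n = 3) in post-caerulein and 57.0 ± 0.878 CPM (n = 2) in untreated libraries of the larger block, 16.8-fold lower, and 17 reads in post-caerulein 04 against 92 in untreated 03 in the smaller block, 5.73-fold lower in CPM. In bulk RNA fewer cells with a transcript and less transcript per cell cannot be told apart.

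With the block, Muc4 fell by 3.80 ± 0.26 on the log2 scale (SE, adjusted p = 0.00579, quasi-likelihood test in edgeR), and it was the only one of the 8 mucins called, all 8 being tested. The same fit called 1.53% of all 16438 genes tested, and 0.876% of all genes as lower. The call was lost without post-caerulein 03, untreated 01 or untreated 02 (edgeR quasi-likelihood adjusted p of 0.0519, 0.117 and 0.0947) and when close pairs were added up (0.422). With the group as the only term, Muc4 did not pass the threshold, at -3.88 ± 1.08 (adjusted p = 0.292, edgeR quasi-likelihood). That fit called 0 of the 8 mucins and 0 of all genes, and only Muc4 among the mucins had an unadjusted p under 0.05 (0.00765), as had 9.50% of all genes. DESeq2 called Muc4 in the fit without the block (adjusted p = 0.0346), limma-voom called no mucin there, and without untreated 03 the quasi-likelihood test called it (0.0118). In the authors' deposited table Muc4 ranks 1 of 12983 genes by p, with a log2 fold change of -3.77 and a false discovery rate of 7.74e-46. Of the 5 mucins in the authors' deposited table, it is the 1 under a false discovery rate of 0.05, where 7.88% of the listed genes are.

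**Figure D1:**
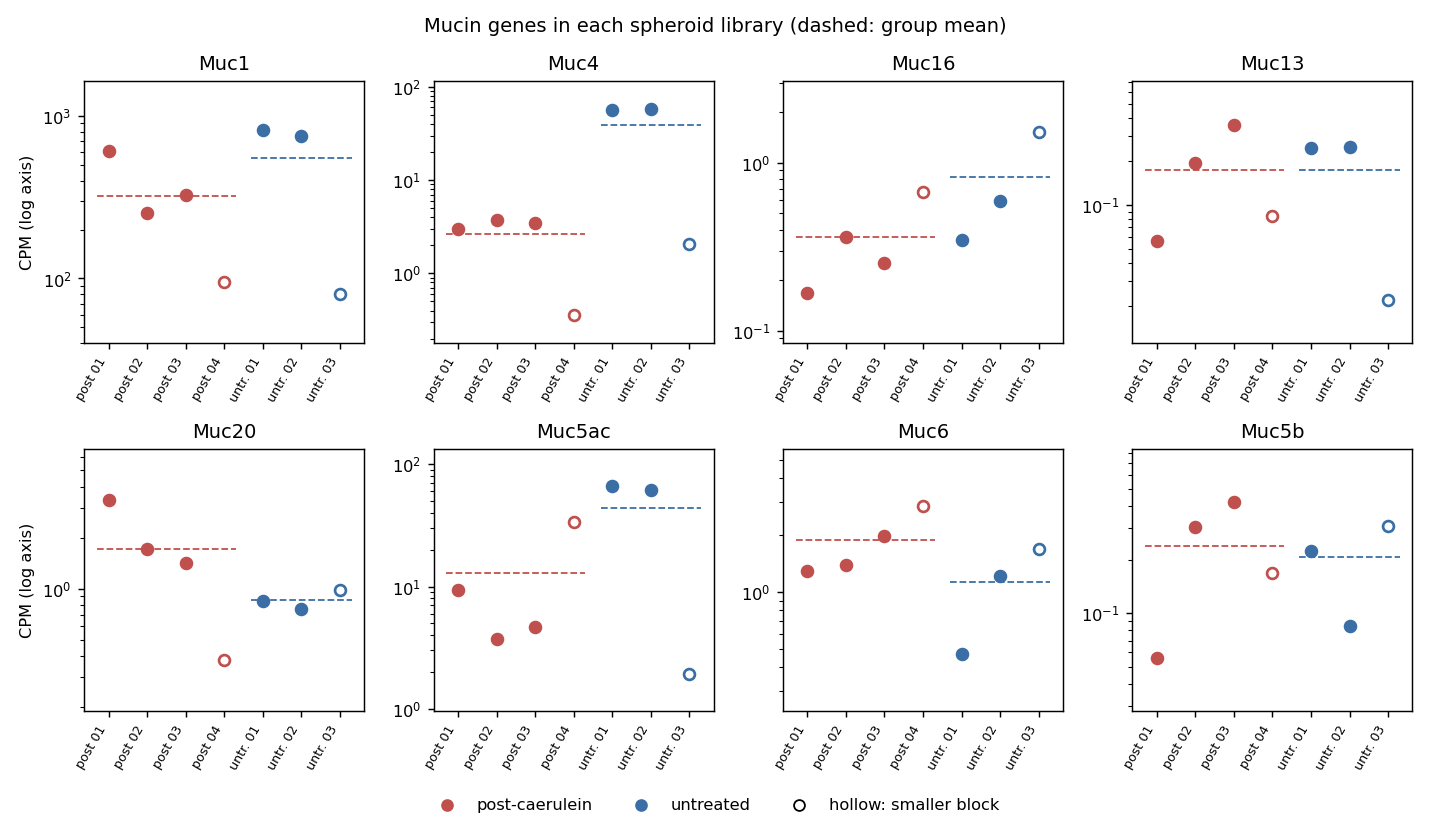
CPM of each mucin gene by library on log axes, membrane mucins first; filled points are the larger block, hollow points the smaller block (post-caerulein 04 and untreated 03), dashed lines the group means. Muc4 and Muc5ac stand above 50 CPM in untreated 01 and 02 alone, while post-caerulein 04 is the lowest library for Muc4 and the highest post-caerulein library for Muc5ac.

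Muc1, the main membrane mucin of ductal epithelium (chromosome 3, 89229057 to 89233381, plus strand), was the most abundant of the 8 in every library. It was at 611, 254, 324 and 95.2 CPM in post-caerulein 01 to 04 and at 820.3, 753 and 80.0 CPM in untreated 01 to 03. The libraries of the smaller block had the 2 lowest values whatever their group, and untreated 01 and 02 the highest. The group means were 321 ± 216 CPM (SD, n = 4) in post-caerulein and 551 ± 409 CPM (n = 3) in untreated libraries, a difference close to the smaller of these SDs. With the block the log2 fold change was -0.64 ± 0.35 (adjusted p = 0.404, edgeR quasi-likelihood), and in the larger block alone it was -0.97 ± 0.34 (0.117). In the smaller block post-caerulein 04 was 1.19-fold above untreated 03.

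Muc16, whose human counterpart carries the CA125 antigen and binds mesothelin, was low. Post-caerulein 01 to 04 gave 6, 13, 12 and 32 reads, and untreated 01 to 03 gave 14, 28 and 69. The lowest CPM values were in post-caerulein 01 and 03 (0.168 and 0.253), and the highest in untreated 03 (1.54), with the other libraries between 0.347 and 0.673. The log2 fold change was -0.97 ± 0.35 with the block (adjusted p = 0.207, edgeR quasi-likelihood). Msln, the gene of its partner mesothelin, was abundant in both groups, at 2245 to 4219 CPM in post-caerulein and 1468 to 5013 CPM in untreated libraries, and was highest in the smaller block.

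Muc20, a small membrane mucin whose human protein is known to bind the receptor MET, had the opposite direction to its neighbour Muc4 in the larger block. It was at 3.34, 1.72, 1.41 and 0.378 CPM in post-caerulein 01 to 04, against 0.842, 0.759 and 0.979 CPM in untreated 01 to 03. Post-caerulein 01 to 03 exceeded all untreated libraries and post-caerulein 04 was below all of them. The log2 fold change was 1.44 ± 0.43 in the larger block alone (adjusted p = 0.0756, edgeR quasi-likelihood) and 0.68 ± 0.62 with the block (0.644), neither past the threshold. Muc4 and Muc20 overlap on opposite strands of chromosome 16 and share 381 exon bases, out of 11277 in Muc4 and 4027 in Muc20, so reads in that stretch cannot be assigned without strand. Muc20 had 34 and 36 reads in untreated 01 and 02, where Muc4 had 2278 and 2733.

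Muc13, a membrane mucin of the gut surface, was close to the limit of detection. It had 2, 7, 17 and 4 reads in post-caerulein 01 to 04 and 10, 12 and 1 in untreated 01 to 03. It passed the filter in only 3 libraries, and its log2 fold change of 0.03 ± 0.60 with the block (adjusted p = 0.989, edgeR quasi-likelihood) changed sign in the larger block alone (-0.22 ± 0.66).

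Of the secreted gel-forming mucins, Muc5ac was the most abundant and went opposite ways in the blocks. Muc5ac is the mucin of the gastric surface and the airways (chromosome 7, 141788972 to 141819231, plus strand). It was at 9.31, 3.75, 4.70 and 33.9 CPM in post-caerulein 01 to 04, against 66.8, 61.9 and 1.91 CPM in untreated 01 to 03. Untreated 01 and 02 were the highest libraries and untreated 03 the lowest of all 7. In the larger block the mean was 5.92 ± 2.98 CPM (SD, n = 3) in post-caerulein and 64.4 ± 3.45 CPM (n = 2) in untreated libraries, 10.9-fold lower. In the smaller block post-caerulein 04 had 1613 reads and untreated 03 had 86, which is 17.7-fold higher in CPM.

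Over the 7 libraries Muc5ac was not called, at -2.24 ± 1.40 with the block (adjusted p = 0.474, edgeR quasi-likelihood) and -1.75 ± 1.11 without it (0.726). In the larger block alone it fell by 3.43 ± 0.34 (adjusted p = 0.00192, edgeR quasi-likelihood), as did Muc4 by 4.05 ± 0.12 (4.08e-05). That fit called 2 of the 8 mucins, both lower, against 6.46% of 16276 genes called lower and 13.8% called in either direction. Without post-caerulein 04 or without untreated 03 the fit with the block called Muc5ac too (adjusted p of 0.00206 and 0.00185, edgeR quasi-likelihood), since the block term then takes up the library left in the smaller block. The difference between the blocks was estimated by an interaction of group and block. It was added after the opposite values were seen and rests on 1 library a group in the smaller block, so it describes these libraries and is no independent test. For Muc5ac the log2 change was 4.15 in the smaller and -3.45 in the larger block, a difference of 7.59 ± 0.74 (SE). At an adjusted p under 0.05 the interaction picked out 3.64% of all genes, Muc5ac being the only mucin among them. For Muc4 the changes were -2.51 and -4.07, a difference of 1.56 ± 0.34, and for Muc20 -1.36 and 1.42, a difference of -2.79 ± 0.84. The fit assumes that the single libraries of the smaller block vary like the rest.

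**Figure D2:**
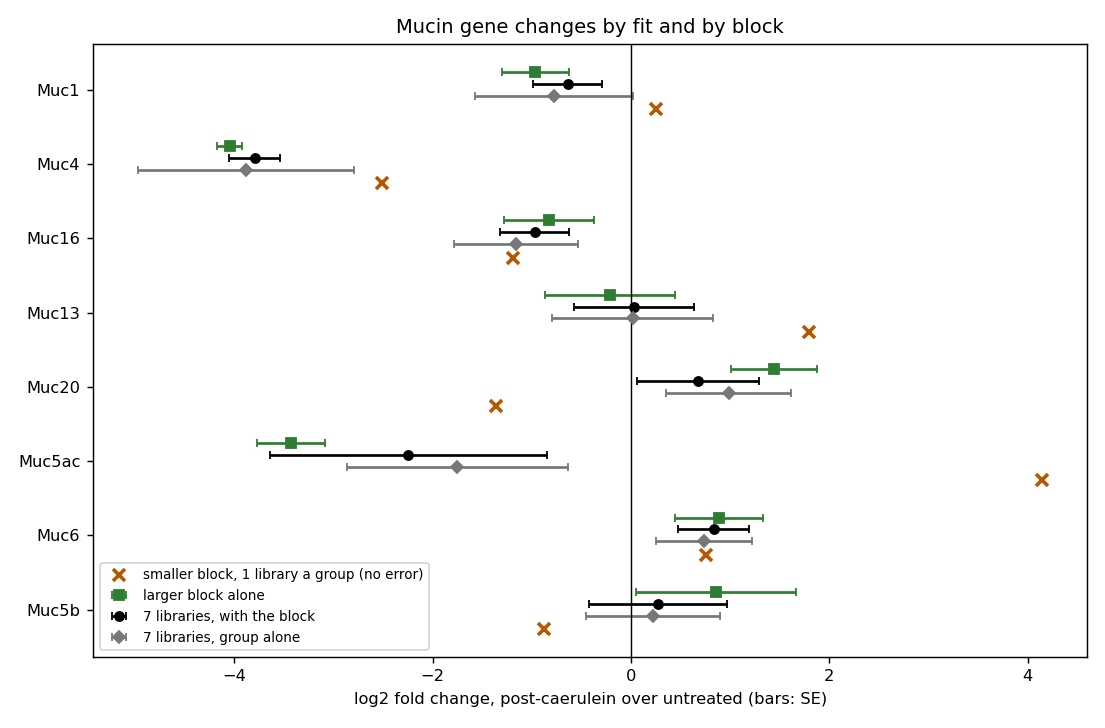
Log2 fold change of each mucin, post-caerulein over untreated, in the larger block alone, in the 7 libraries with the block, in the 7 libraries with the group alone (bars are SE) and between the single libraries of the smaller block (crosses, no error). Muc4 is negative in all 4, while Muc5ac lies at -3.43 in the larger block alone and at 4.15 in the smaller block.

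Muc6, the mucin of deep gastric glands, had 46, 50, 94 and 136 reads in post-caerulein 01 to 04 and 19, 58 and 76 reads in untreated 01 to 03. Its CPM averaged 1.88 ± 0.721 (SD, n = 4) in post-caerulein and 1.13 ± 0.616 (n = 3) in untreated libraries, with 2 of 4 post-caerulein libraries above all untreated ones. The order held in both blocks, by 1.83-fold in the larger and 1.69-fold in the smaller, but the log2 fold change of 0.83 ± 0.36 with the block did not pass the test (adjusted p = 0.287, edgeR quasi-likelihood). Muc5b, of airway and salivary mucus, had 2 to 20 reads in post-caerulein and 4 to 14 reads in untreated libraries. Its log2 fold change with the block was 0.27 ± 0.70 (adjusted p = 0.891, edgeR quasi-likelihood).

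Over all 8 mucins the log2 fold change with the block was positive for 4 and negative for 4, with a median of -0.31, against -0.0041 over all genes tested. No mucin had groups that did not overlap over the 7 libraries, as 9.32% of all genes did (4.67% with the post-caerulein group above, 4.65% with it below). In the larger block Muc1, Muc4 and Muc5ac were lower in every post-caerulein library than in every untreated one, as were 24.2% of all genes, and Muc6 and Muc20 were higher, as were 21.9%. Muc4 was lower without overlap in both blocks, as were 12.2% of all genes.

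Levels can be set between genes only per length of exon, here as CPM per kilobase (RPKM). Muc1 averaged 143 ± 96.3 RPKM (SD, n = 4) in post-caerulein and 246 ± 183 RPKM (n = 3) in untreated libraries, and made up 92.1% to 99.2% and 96.7% to 97.6% of the summed RPKM of the 8 mucins. By mean CPM it ranked 344 of 16438 genes tested. Next came Muc5ac at 1.20 ± 1.32 RPKM in post-caerulein and 4.05 ± 3.36 RPKM in untreated libraries, and Muc4 at 0.233 ± 0.137 and 3.43 ± 2.81 RPKM in the same order. Muc20 (0.425 ± 0.304 and 0.214 ± 0.0276 RPKM) and Muc6 (0.201 ± 0.0770 and 0.121 ± 0.0658 RPKM) followed. The means of Muc5ac, Muc4, Muc20 and Muc6 lay within 1 SD of their neighbours in this order in at least 1 group. Muc13, Muc16 and Muc5b were at or under 0.118 RPKM in every library.

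The order below Muc1 differed between libraries. Muc5ac came next after Muc1 in 5 of the 7, but was below Muc20 in post-caerulein 02 and below Muc20, Muc4 and Muc6 in untreated 03. Muc4 was below Muc20 in all 4 post-caerulein libraries and in untreated 03, and above it in untreated 01 and 02. The ratio of Muc5ac to Muc4 CPM was 1.01 to 3.13 in post-caerulein 01 to 03 and 94.9 in post-caerulein 04, against 0.935 to 1.18 in the untreated libraries. In the untreated group both genes were high in the same libraries and low in the same library.

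**Figure D3:**
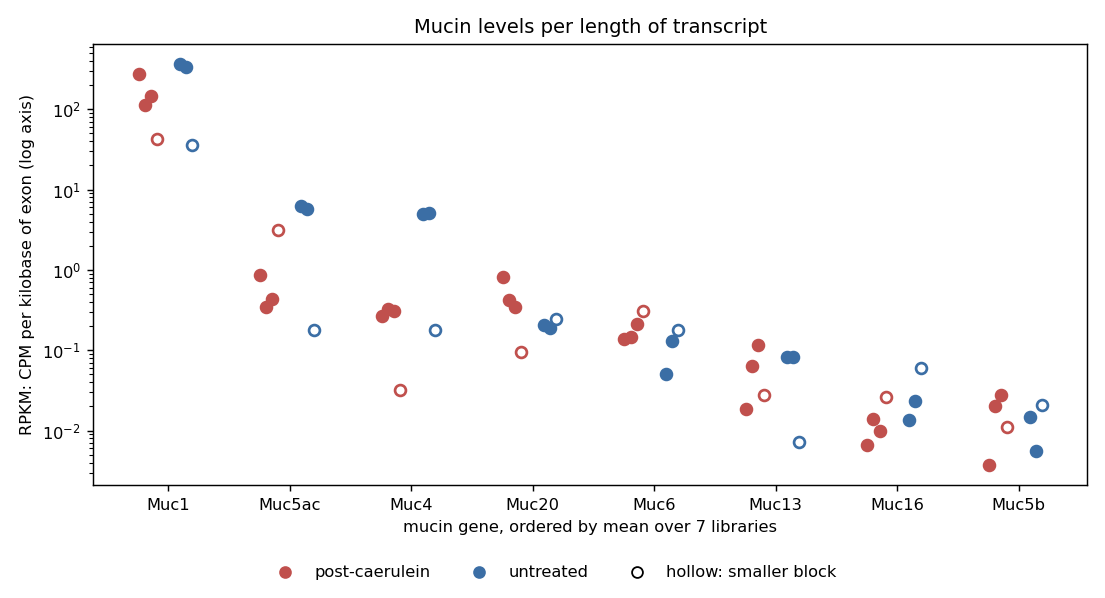
RPKM of the 8 mucins on a log axis, ordered by mean over the 7 libraries, with post-caerulein libraries on the left and untreated libraries on the right of each gene and hollow points for the smaller block. Muc1 lies between 35.7 and 366 RPKM, and every other mucin is at or below 6.21 RPKM.

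Of the 5 mucins with a mean of at least 1 CPM and an SD of at least 0.5 (log2) over the 7 libraries, each was compared with 11026 named genes by the root mean square difference of centred log2(CPM + 0.5) profiles. Muc1 was most like Tmprss4, a membrane serine protease gene (0.13), Acss1 (0.18) and Cdc42ep2 (0.19). The gene most like Muc4 was Xlr4a (0.33), at 0.0841 to 1.29 CPM in post-caerulein and 0.734 to 20.2 CPM in untreated libraries, followed by Fmo2 (0.46), a flavin monooxygenase gene, and Pdlim4 (0.47). Muc5ac had no gene as close as these by this measure, with Lncenc1 (0.84), Flrt2 (0.88) and Sox6 (0.89) first. The difference also grows with a gene's own spread, an SD of 1.96 (log2) in Muc5ac against 0.683 in Muc20 and 0.552 in Muc6. It therefore does not rank the mucins by closeness. Muc20 was most like Pdgfb (0.18), Gpd1 (0.19) and Tgfb2 (0.21), and Muc6 like Fzd3 (0.22), Ldlrad3 (0.23) and Gimap9 (0.23). The 7 libraries include close pairs, so these are descriptions over few independent points.

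**Figure D4:**
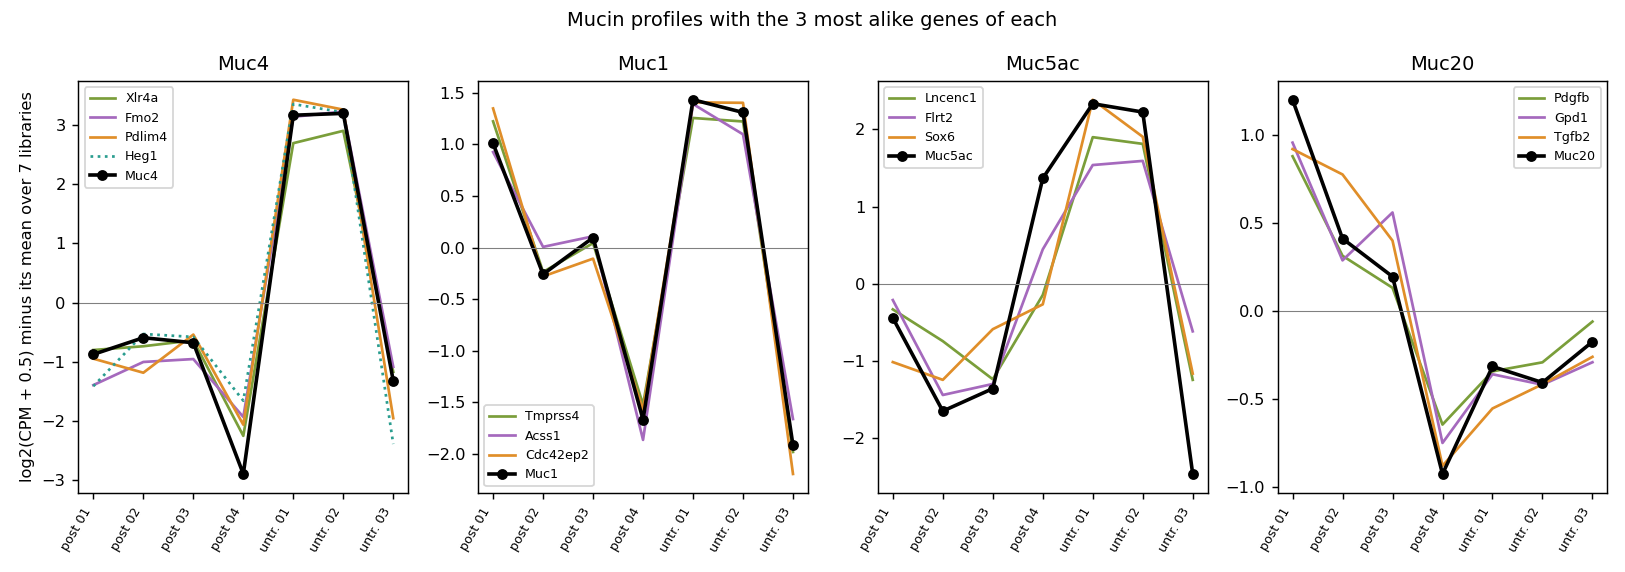
Centred log2(CPM + 0.5) of Muc4, Muc1, Muc5ac and Muc20 (black) by library, with the 3 most alike genes of each and, beside Muc4, Heg1 (dotted). Muc4 and its 3 genes are highest in untreated 01 and 02, and Muc1 and its 3 genes are lowest in post-caerulein 04 and untreated 03.

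The mucins lie in groups on chromosomes 7 and 16. Muc6, Muc2, Muc5ac and Muc5b are consecutive genes on chromosome 7. Muc2, the intestinal gel-forming mucin between Muc6 and Muc5ac, had 14 to 50 reads in post-caerulein and 19 to 53 in untreated libraries, with no excess in untreated 01 and 02 where Muc5ac was high. Tollip, 1728 bases past Muc5b, was at 108 to 123 CPM in post-caerulein and 96.8 to 118 CPM in untreated libraries. On chromosome 16 the gene before Muc13 is Heg1, itself a mucin-like membrane protein of endothelium, 22460 bases away. Heg1 was at 24.3, 45.2, 43.7 and 20.5 CPM in post-caerulein 01 to 04, against 672, 611 and 12.1 CPM in untreated 01 to 03. Like Muc4 it was high in untreated 01 and 02 alone, but post-caerulein 04 was above untreated 03, and with the block it was not called (-3.08 ± 0.92, adjusted p = 0.147, edgeR quasi-likelihood). In the larger block alone Heg1 fell by 4.06 ± 0.27 (adjusted p = 0.000491). Trim46 ends 795 bases from the end of Muc1 on the opposite strand. Its CPM was 14.4, 8.10, 10.4 and 7.44 in post-caerulein 01 to 04 and 23.1, 25.4 and 7.25 in untreated 01 to 03. Like Muc1 it was higher in untreated 01 and 02 than in the rest and lowest in untreated 03. Whether Muc1 reads enter the Trim46 count was not tested.

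Of 16 other mucin and mucin-like genes listed, 15 were in the table and 8 were tested. None was called with the block by edgeR's quasi-likelihood test, and the median log2 fold change with the block was 0.10. In the larger block alone 1 of these 8 rose and none fell, where 7.35% and 6.46% of all genes did. That 1 was Podxl, a sialomucin gene, at 244 to 283 CPM in post-caerulein and 104 to 230 CPM in untreated libraries, where untreated 03 was highest (log2 1.31 ± 0.10 in the larger block alone, adjusted p = 0.000772, edgeR quasi-likelihood). Cd164, a lysosomal sialomucin, was the most abundant at a mean of 457 CPM. Muc19, Mucl1 and Mucl2 had no reads in any library, and Muc3a had at most 3 reads in the post-caerulein libraries and untreated 03 but 0.767 and 0.590 CPM in untreated 01 and 02. Muc3a, an intestinal membrane mucin gene, is not among these 8, but it passed the filter of the larger block alone. There it fell by 4.18 ± 0.71 (log2, adjusted p = 0.0120, edgeR quasi-likelihood). It passed only through untreated 01 and 02, so that call is no support for a difference.

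Of 27 listed genes that pack and secrete mucins, 20 were tested, and with the block 4 rose and none fell, against 0.651% of all genes called higher. The 4 were the trefoil peptide genes Tff3, Tff2 and Tff1, whose products are secreted with mucins, and Sytl2, a Rab27 effector of granule docking. Tff3 was at 222, 41.2, 80.5 and 14.4 CPM in post-caerulein libraries, where Muc5ac was at 3.75 to 33.9 CPM, and at 1.16 to 1.56 CPM in untreated ones, where Muc5ac reached 66.8 CPM. Every post-caerulein library exceeded every untreated one for Tff3, as for 4.67% of all genes. Post-caerulein 04, with the most Muc5ac of its group, had the least Tff3 of that group. With the block Tff3 rose by 5.56 ± 0.97 (log2, adjusted p = 0.0478) and Tff1 by 3.37 ± 0.60 (0.0490), both by the quasi-likelihood test. Tff2 had 93, 28, 86 and 37 reads in post-caerulein 01 to 04, against 6, 2 and 1 in untreated 01 to 03. It passed the filter only through the post-caerulein libraries, so its call is no support for a difference. The fit with the block called 0 genes in all without untreated 01, without untreated 02 or with close pairs added up, and 3 without post-caerulein 03, so the first 3 settings end every call with the block named here and below. Sytl2 was at 13.5 to 28.4 CPM in post-caerulein and 5.00 to 7.01 CPM in untreated libraries and rose by 1.71 ± 0.30 on the log2 scale (adjusted p = 0.0480). In the larger block alone 10 of the 20 rose and 3 fell, where 7.35% and 6.46% of all genes did. The 3 were Clca1, a secreted protein gene of mucus, Rab27a, a granule GTPase gene, and Unc13d, a priming factor gene. Clca1 passed the filter of the larger block alone only through untreated 01 and 02, so its call is no support for a difference.

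Enzymes of mucin O-glycosylation had 26 of 32 members tested, of which 2 rose with the block and none fell, where 0.651% of all genes were called higher and 0.876% lower. Gcnt3, the mucin-type enzyme that branches core O-glycans, was at 364, 286, 337 and 538 CPM in post-caerulein 01 to 04 and at 152, 135 and 378 CPM in untreated 01 to 03. It was higher after caerulein in each block and rose by 0.99 ± 0.17 with the block (log2, adjusted p = 0.0422). St6galnac2, which sialylates these glycans, was at 7.52 to 8.81 CPM in post-caerulein and 1.16 to 2.27 CPM in untreated libraries and rose by 2.29 ± 0.24 with the block (adjusted p = 0.0203). In the larger block alone 7 of the 26 rose and 1 fell, where 7.35% and 6.46% of all genes did. The list's median log2 fold change was 0.36 with the block, against -0.0041 over all genes tested.

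Of 25 transcription factor genes known to act on mucin genes, 22 were tested, and 1 fell with the block and none rose, where 0.876% of all genes were called lower. It was Elf3, an epithelial ETS factor, at 207, 137, 148 and 82.9 CPM in post-caerulein 01 to 04, against 511, 510.3 and 191 CPM in untreated 01 to 03. Elf3 was lower after caerulein in each block, as Muc4 was, and fell by 1.51 ± 0.16 with the block (log2, adjusted p = 0.0205). In the larger block alone 3 of the 22 rose and 4 fell, Elf3 among these, where 7.35% and 6.46% of all genes did. Sox2 and Atoh1 had no reads. Among 15 partners and sheddases of membrane mucins, 14 were tested and none was called with the block by edgeR's quasi-likelihood test. In the larger block alone Msln rose, as did 7.35% of all genes, and Erbb3, a receptor of the EGF receptor family, fell, as did 6.46%. With the group as the only term no gene of any list was called.

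**Figure D5:**
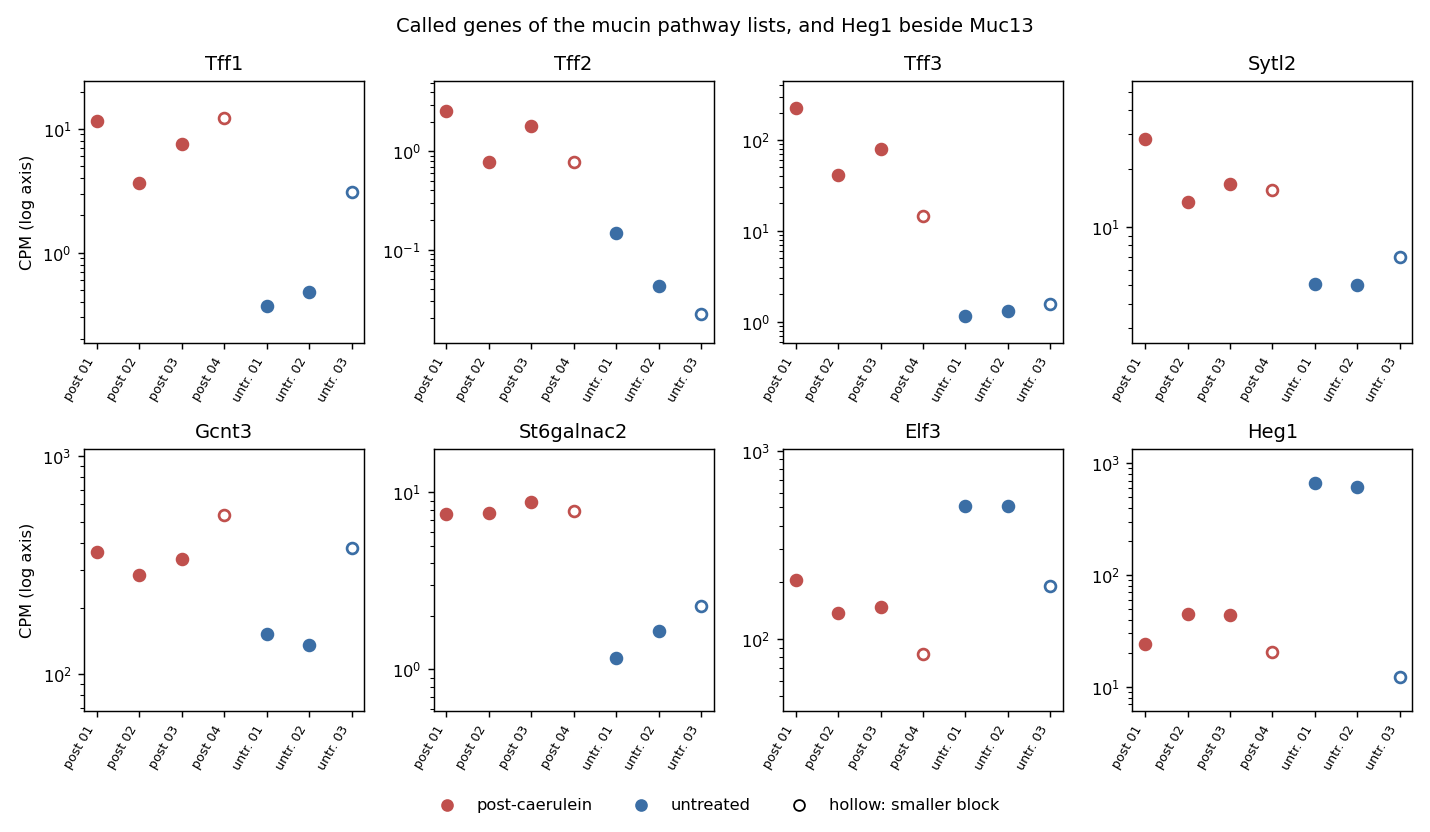
CPM by library, on log axes, of the called genes of the pathway lists and of Heg1 beside Muc13, with hollow points for the smaller block. Tff1, Tff2, Tff3, Sytl2 and St6galnac2 are higher in all 4 post-caerulein libraries than in all 3 untreated ones, as are 4.67% of all genes. These genes were picked as called in the same libraries, and Tff2 passed the filter only through the post-caerulein libraries. Elf3 is lower in both blocks, and Heg1 is high in untreated 01 and 02 alone.

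Apart from Msln and Ctse, most markers of other cell types were low, and some moved with the blocks. Exceptions were Cd68 at 97.9 CPM in untreated 03 and Muc5ac at 66.8 CPM in untreated 01. Spink4 reached 42.0 CPM in post-caerulein 01 and Fcgbp 30.9 CPM in untreated 02. The 9 fibroblast and stellate markers, led by Col1a1 and Col1a2, summed to 3.03 to 7.35 CPM in post-caerulein libraries, against 0.322, 0.169 and 21.3 CPM in untreated 01 to 03. The untreated library with low Muc1, Muc4 and Muc5ac thus had the most, and untreated 01 and 02, with high levels of these mucins, the least. The 7 leukocyte markers summed to 12.9 to 36.8 CPM in post-caerulein and 21.4 to 98.9 CPM in untreated libraries, highest in untreated 03 and mostly from Cd68, a lysosomal glycoprotein gene, while Csf1r was low. Their part in the mucin levels was not tested.

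Acinar markers, led by Ctrb1 and Bhlha15, summed to 3.11 to 12.6 CPM in post-caerulein and 1.46 to 2.10 CPM in untreated libraries. Islet markers, led by Chga and Iapp, summed to 0.484 to 4.59 CPM in post-caerulein and 0.0248 to 0.445 CPM in untreated libraries. Both sums were higher in every post-caerulein library than in every untreated one, but narrowly for the islet sum. Among single genes tested 4.67% had this order, which is no background for sums over a list. Bhlha15 overlapped, at 0.561 to 1.36 CPM in post-caerulein and 0.759 to 1.49 CPM in untreated libraries. Chga also overlapped, at 0.210 to 2.11 CPM and 0.0211 to 0.289 CPM in the same order. Ctrb1 did not overlap, at 0.971 to 7.32 CPM in post-caerulein and 0.0422 to 0.222 CPM in untreated libraries. Nor did Iapp, at 0.147 to 0.925 CPM and 0 to 0.0445 CPM. With the block Ctrb1 rose by 5.59 ± 0.89 (log2, adjusted p = 0.0378, edgeR quasi-likelihood), where 0.651% of all genes were called higher. It had 2, 2 and 10 reads in untreated 01 to 03. It passed the filter through the post-caerulein libraries, so its call is no support for a difference. Of the 8 islet markers 7 stayed under 1 CPM everywhere. Tuft markers, led by Dclk1 and Avil, summed to 4.43 to 14.3 CPM in post-caerulein and 3.94 to 21.7 CPM in untreated libraries, and endothelial markers, led by Vwf and Pecam1, to 0.449 to 1.39 CPM and 1.36 to 2.83 CPM in the same order. The 8 mesothelial markers summed to 2248 to 4221 CPM in post-caerulein and 1469 to 5015 CPM in untreated libraries. Nearly all of this was Msln, with Krt5 next, and 5 of the 8 stayed under 1 CPM everywhere. The 9 markers of gastric surface and neck cells, Muc5ac among them, summed to 540 to 762 CPM in post-caerulein and 248 to 1047 CPM in untreated libraries, mostly from Ctse. Their part in the mucin levels was not tested.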

How the data were processed

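Polyadenylated RNA from 7 spheroid libraries was sequenced. The values the authors deposited are unnormalised counts per gene, with exon coordinates and lengths, per the file headers. The submitters' processing notes name featureCounts (version 0.6.1) and GRCm38 (mm10). No source used here names the aligner, the strand setting or how multi-mapping reads were handled. The authors' deposited edgeR (version 3.2.2) table gives log2 fold changes, average log2 CPM, a likelihood ratio score, p-values and false discovery rates, per the file headers.

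Identifiers without version matched GENCODE M21 for 54409 of 54446 genes. Counts were filtered with filterByExpr (minimum count 10, here 0.218 CPM in at least 3 libraries), which all 8 mucins passed, normalised by TMM and tested two-sided with edgeR 4.0.16's robust quasi-likelihood test, Benjamini-Hochberg adjusted over 16438 genes, called under 0.05. The SE of a log2 fold change was taken from the test statistic. CPM use TMM-scaled library sizes, and RPKM divide them by exon length. The fits were tested on simulated counts. Members, lists and tests were chosen with earlier results of these data known, as was the block. Named genes are the mucins, up to 4 genes called with the block per list, the 2 most abundant markers per cell type, the 3 most alike genes per variable mucin, and genomic neighbours. Others (Podxl, Cd164, Muc19, Mucl1, Mucl2, Muc3a, Sox2, Atoh1, Clca1, Rab27a, Unc13d, Erbb3, Cldn18) were named after their values were seen. Alternatives were RLE size factors, other filters, DESeq2 1.42.0, limma-voom (limma 3.58.1), a likelihood ratio test, no robust estimation, leaving out single libraries, a block of replicate numbers, the larger block alone and close pairs summed. R 4.3.3 and matplotlib 3.10.9 were used.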

Additional observations from a re-analysis of the deposited data

Results flagged for a closer look

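The change of Muc5ac differed between the blocks. Its log2 change was 4.15 in the smaller block (post-caerulein 04 against untreated 03) and -3.45 in the larger block, a difference of 7.59 in the interaction of group and block. That interaction was added after the values were seen and rests on 1 library a group in the smaller block, so it is a description of these libraries. Within the post-caerulein group no mucin had a library whose distance from the others passed the limit for 4 samples.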

How the results depend on the processing

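The log2 fold change of Muc4 was negative in all 17 alternatives to the fit with the group alone (-4.42 to -2.78, 4 of them called) and in all 16 to the fit with the block (-4.05 to -3.61, 12 called). Without the block, mucins called numbered 1 with DESeq2, 1 with the likelihood ratio test and 2 in the larger block alone, and genes called 23 without a filter, 509 with DESeq2, 343 with the likelihood ratio test and 2247 in the larger block alone. With the block, mucins called numbered 2 in the larger block alone and 0 with close pairs summed, and genes called 602 without a filter, 138 with at least 50 counts in 3 libraries, 1366 with DESeq2, 1227 with the likelihood ratio test, 2247 in the larger block alone and 0 with close pairs summed. Leaving out each library gave 0 to 1 mucins and 0 to 1149 genes without the block, and 0 to 2 mucins and 0 to 2267 genes with it. The log2 fold changes that changed sign were those of genes near detection: Muc13 at -0.22 in the larger block alone and -0.14 with limma-voom and the block, and Muc5b at -0.090 with close pairs summed and no block. With each library left out, Muc13 ranged over -0.47 to 0.40 without and -0.22 to 0.42 with the block, and Muc5b over -0.15 to 0.69 and -0.21 to 0.86. The cause was not tested.

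Same-numbered libraries had correlations of deviations from the group mean of 0.397, 0.162 and -0.233, and not every library correlated best with its own number. The block enters these values, as untreated 03 with post-caerulein 04 gave 0.564 and untreated 01 with post-caerulein 04 gave -0.518. They therefore cannot decide whether the replicate numbers pair the samples. With the replicate number as a block, 0 mucins and 0 genes were called, and Muc4 was at -2.78 (adjusted p = 0.622, edgeR quasi-likelihood). Depth limits Muc13, Muc5b and Muc16, which had 30, 41 and 63 reads in post-caerulein and 23, 27 and 111 reads in untreated libraries.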

Other observations

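Of 9 gastric surface and neck genes 7 were tested, and with the block 3 were called higher (Tff1, Tff2 and Cldn18, a tight junction gene) and none lower by edgeR's quasi-likelihood test, with a median log2 fold change of 1.05. Over all genes 0.651% were called higher. Tff2 passed the filter only through the post-caerulein libraries, so its call is no support for a difference. Of 6 goblet cell genes 4 were tested and none was called with the block. Ctse, the gastric cathepsin E gene, was at 671, 526, 583 and 699 CPM in post-caerulein 01 to 04 and at 178, 189 and 1035 CPM in untreated 01 to 03, high in the untreated library where Muc5ac was lowest. Spink4, a goblet cell peptide gene, was at 42.0, 7.85, 13.8 and 1.26 CPM in post-caerulein libraries, against 0.445 to 0.822 CPM in untreated ones, and was not called with the block (adjusted p = 0.0837, edgeR quasi-likelihood). Fcgbp, a mucus-binding protein gene, was at 20.6, 3.19, 4.49 and 1.16 CPM in post-caerulein 01 to 04 and at 28.4, 30.9 and 0.823 CPM in untreated 01 to 03, high in untreated 01 and 02 like Muc4 and Muc5ac but also in post-caerulein 01. Airway secretory markers summed to 0.210 to 3.56 CPM in post-caerulein and 0.396 to 0.485 CPM in untreated libraries, with no reads for Scgb3a2 and Bpifa1.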
